A study of Mus musculus with 2 samples.

Results

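Six3 astroglia of the embryonic corticoseptal boundary are the subject here: cells that carried the glial glutamate transporter transcript Slc1a3 together with Six3, a homeobox factor of the ventral and medial forebrain, and that lacked the dorsal factor Emx1. A cell was a barcode with 3350 or more UMIs (unique molecular identifiers, each 1 captured transcript) from 500 or more genes, of which no more than 10% were mitochondrial. Members had at least 3 Slc1a3 UMIs, at least 2 Six3 UMIs, no Emx1, Fgf8 or Fgf17 UMI, at most 1 Foxj1 UMI and at most 1 UMI of the division genes Top2a and Mki67 together. They numbered 649 of 19630 cells: 338 of 8964 in the WT library and 311 of 10666 in the Tcf4 conditional knockout (cKO) library. The study profiled dissected corticoseptal boundary tissue of mouse embryos at E16.5 by droplet single-cell RNA sequencing, with a single library for the WT genotype and a single one for Tcf4f/f;Emx1Cre. In the cKO genotype both Tcf4 alleles are floxed and Emx1-driven Cre recombines them in the dorsal telencephalic lineage, and the files do not show which members descend from that lineage. The labels do not give the number of embryos behind a library, and WT names no allele beyond the wild type. The comparison set, called Emx1 astroglia here, held the 1030 WT and 856 cKO cells with at least 3 Slc1a3 UMIs and at least 1 Emx1 UMI.

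Astroglia at the corticoseptal boundary descend from radial glia, the progenitors that line the ventricle and later make astrocytes, and some of them form midline glial structures that the callosal axons meet as they cross. The position of a glial cell is written in its patterning factors: Emx1, Emx2, Pax6 and Lhx2 mark the pallium, and Six3, the Zic genes and Nkx2-1 mark septal and subpallial ground. Tcf4 encodes a class I basic helix-loop-helix protein (an E protein) that pairs with proneural factors such as Neurog2, binds E-boxes (CANNTG), and is kept from DNA by the Id proteins.

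The WT library held 116998498 UMIs and the cKO library 121321247, and the median cell had 9799.5 and 8306 UMIs. Six3 astroglia were shallower than Emx1 astroglia, with a median of 8302.5 UMIs in WT and 7772 in the cKO against 13202 and 13101.5. Levels are UMIs summed over the cells of a set and scaled to 1000000 UMIs of that set (CPM). The members' sums were 3167004 and 2843497 UMIs. CPM from a 3′ end-counting assay is not divided by gene length, so levels of different genes are not ranked against each other. Intervals in parentheses after a level or ratio are 95% exact intervals, which cover counting error only. With 1 library per genotype there is no replicate check, no test was run, and a WT to cKO difference cannot be told apart from a difference between these 2 libraries. The libraries shared 23 cell barcodes. A doublet caller marked 24 WT members (7.101%) and 35 cKO members (11.25%), against 93 (9.03%) and 124 (14.5%) of the Emx1 astroglia. Over all cells the shares were lower, 3.65% in WT and 5.11% in the cKO.

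The markers that were not part of the selection placed these cells among astroglia. Sox9, a transcription factor of the glial lineage, stood at 693 and 626 CPM in the WT and cKO members and at 445 and 414 CPM in the Emx1 astroglia. Aldh1l1, a folate enzyme used as an astrocyte marker, stood at 183 and 135 CPM against 44.4 and 18.7 CPM. Sox9 UMIs were present in 97.3% of WT and 96.1% of cKO members. With every cell thinned to the same 3350 UMIs the shares were 84.0% and 81.7%, against 10.3% and 10.3% of thinned glutamatergic neurons, a type that should lack Sox9. Before thinning those neurons (1919 and 3244 cells, median 11142 and 8899 UMIs) gave 24.1% and 20.01%. Of 9 astroglial markers (Sox9, Aldh1l1, Slc1a2, Fabp7, Nfia, Aldoc, Gfap, Aqp4 and Fgfr3), 99.4% of WT and 99.7% of cKO members carried at least 2. The cells were not mature astrocytes: the filament gene Gfap reached only 3.47 and 5.98 CPM and the water channel gene Aqp4 5.05 and 11.6 CPM. The positional part of the name rests on weaker ground. At least 2 of the 5 Zic genes were found in 86.1% of WT and 87.5% of cKO members (67.2% and 68.8% thinned), but Zic genes were not particular to them: thinned, Zic1 was found in 71.6% and 73.6% of members, 54.8% and 52.9% of Emx1 astroglia and 33.2% and 36.25% of glutamatergic neurons. Six3 itself was also abundant in GABAergic neurons (252 and 267 CPM), and 18.6% of WT and 32.5% of cKO members carried Nkx2-1, a factor of the ventral forebrain and part of the septum. Expression alone cannot tell septal cells from adjoining ventral cells, so the cells are called Six3 astroglia.

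The selection genes are given as a description. Six3 stood at 391.5 and 385 CPM in the members and 58.9 and 56.65 CPM in the Emx1 astroglia, of which 18.45% in WT and 17.6% in the cKO also carried at least 2 Six3 UMIs. Slc1a3 stood at 1218 and 1080 CPM against 559.9 and 439.6 CPM. A member held a median of 3 Six3 UMIs in both libraries, and 123 WT and 112 cKO members sat at the minimum of 2. Just outside that limit, the 124 WT and 156 cKO cells with 1 Six3 UMI that met every other condition had Sox9 at 589.9 and 599 CPM, Aldh1l1 at 134 and 129 CPM and Pax6 at 48.5 and 49.6 CPM. These levels were close to those of the members, but Neurog2 stood higher there, at 71.8 and 86.6 CPM. The 288 WT and 565 cKO cells with no Six3 UMI had Pax6 at 182 and 106 CPM and Neurog2 at 302 and 228 CPM. At the Slc1a3 limit, members with exactly 3 Slc1a3 UMIs (25 and 37 cells) had Aldh1l1 at 38.8 and 56.6 CPM, and cells with 2 that were members otherwise (41 and 40) had 25.01 and 41.3 CPM.

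**Figure D1:**
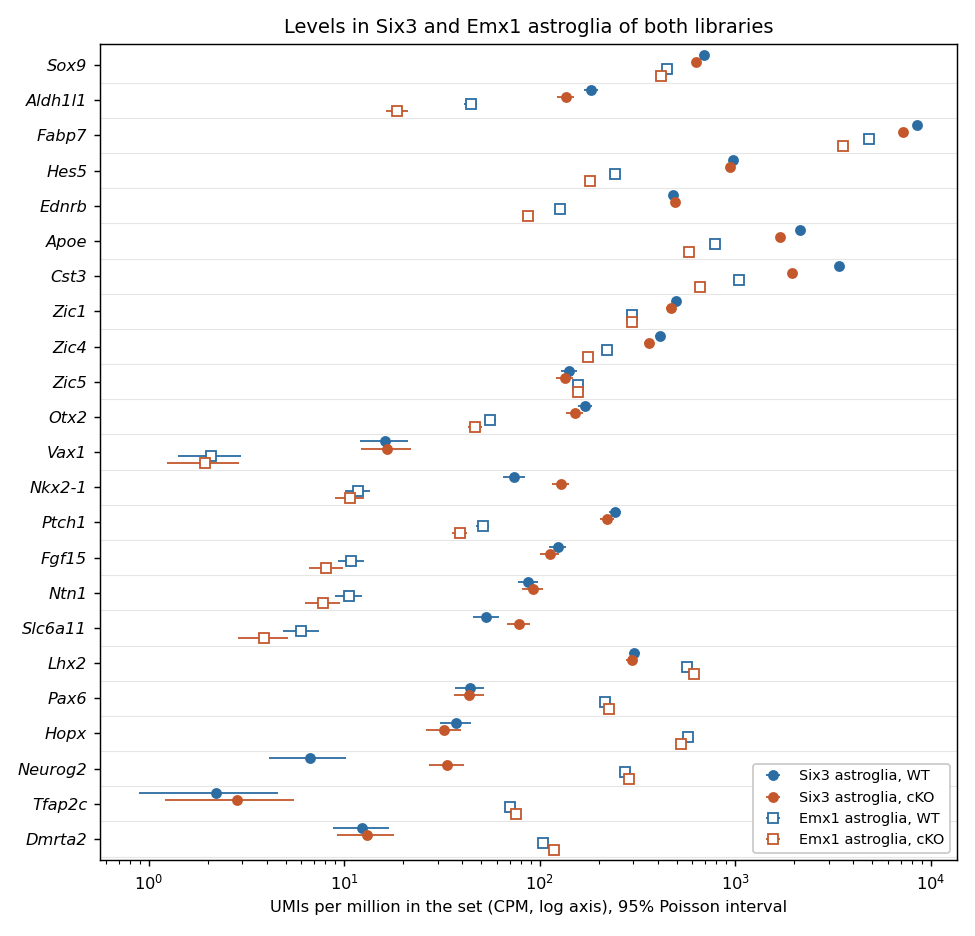
Levels of marker and regional genes in Six3 and Emx1 astroglia of the WT and cKO libraries, in CPM on a log axis. Each point is 1 summed set with its 95% counting interval; Aldh1l1 and Sox9 sit higher in the Six3 astroglia of both libraries, and Pax6 and Hopx sit lower.

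Against the Emx1 astroglia, a gene was counted as past 1.5-fold when its ratio, with 5 CPM added to both levels, passed that size in the same direction in both libraries; 11216 genes with at least 50 UMIs in each library were compared. In all, 851 genes (7.59%) were higher and 731 (6.52%) lower in the Six3 astroglia. The Emx1 astroglia include dividing cells: 48.25% of WT and 49.9% of cKO cells had at least 2 Top2a and Mki67 UMIs, a class that the selection removed from the members. Held to the same limits on dividing, ciliated, Fgf8 and Six3 transcripts, the comparison held 399 WT and 331 cKO cells, and 627 genes (5.59%) were higher and 247 (2.2%) lower against these as well. These comparison cells also carried transcripts of neurogenic progenitors. In WT and cKO, Eomes stood at 233.5 and 182 CPM there and Neurog2 at 533 and 493 CPM. The members had 7.26 and 9.85 CPM of Eomes and 6.63 and 33.4 CPM of Neurog2. The part of such cells in the counts was not tested. The members were chosen by values from the same cells, so these counts and the ratios between the sets are a description.

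Patterning factors separated the sets. Of 26 septal and ventral factors compared, 17 were higher in the Six3 astroglia and 1, Nr2f1, was lower. Under the same limits 13 were higher and 0 lower, Vax1, Gsx2, Gli1, Meis1 and Nr2f1 no longer being called. Their median log2 ratio was 0.87 in WT and 1.01 in the cKO, against 0.02 in both for all genes. Zic1 and Zic4, zinc finger factors of the dorsal and medial midline, stood at 498 and 467 CPM and at 409.5 and 361 CPM in WT and cKO members, against 296 and 295 CPM and 219.5 and 176 CPM in the Emx1 astroglia. The family was not uniform: Zic2 (85.9 and 87.2 CPM against 80.8 and 75.6 CPM) and Zic5 (140.5 and 134 CPM against 157 and 156 CPM) did not pass 1.5-fold in either direction. Otx2, a homeobox factor of the midline and choroid plexus, stood at 170.2 and 150.5 CPM against 55.8 and 46.4 CPM, higher 3.05-fold (2.73 to 3.40) in WT and 3.245-fold (2.86 to 3.68) in the cKO. Nkx2-1 stood at 73.9 and 128 CPM against 11.7 and 10.7 CPM. The eminence factors Dlx1 (45.15 and 55.9 CPM against 16.8 and 16.2 CPM) and Dlx2 (43.3 and 46.4 CPM against 13.05 and 13.0 CPM) were also higher.

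None of 21 pallial factors compared was higher and 15 were lower, with a median log2 ratio of -1.58 in WT and -1.46 in the cKO; 12 of them were also lower against the comparison cells held to the same limits. Emx2, named above as a pallial marker, was not among the 15. In members with 2, 3 and at least 4 Six3 UMIs it stood at 87.0, 76.5 and 81.7 CPM in WT. In the cKO the levels were 80.4, 94.2 and 61.0 CPM. Cells with no Six3 UMI that met the other conditions had Emx2 at 104 and 77.1 CPM. Hopx, a homeodomain-only protein of dorsal and outer radial glia, stood at 37.3 and 32.35 CPM in the members against 572 and 526 CPM, lower 15.35-fold (12.8 to 18.6) in WT and 16.3-fold (13.2 to 20.2) in the cKO. Pax6, a paired-box factor that sets pallial identity, stood at 43.9 and 43.6 CPM against 216 and 226 CPM, and Dmrta2, a regulator of cortical patterning, at 12.3 and 13.0 CPM against 103 and 118 CPM. The transcription factor gene Tfap2c stood at 2.21 and 2.81 CPM against 70.3 and 75.1 CPM, a difference of 31.8-fold (15.4 to 79.3) in WT and 26.7-fold (13.5 to 62.0) in the cKO. Eomes, the factor of intermediate progenitors of the pallium, stood at 7.26 and 9.85 CPM against 117 and 120 CPM. In the comparison cells held to the same limits Eomes stood higher still, at 233.5 and 182 CPM. Lhx2, which represses midline fate in the cortex, had the smallest ratio of the lower factors named here, with 304 and 295 CPM against 563 and 612 CPM. Under the same limits the ratios of Hopx (16.7-fold lower in WT, 14.3-fold in the cKO) and Dmrta2 (9.43 and 9.19) were of the same order.

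Six3 is shown here as the selection gene, Slc6a11 as a gene higher in the members and Hopx as a lower one. The 250 bases upstream of a RefSeq transcript start of each are given 5′ to 3′ on the gene's strand (build GRCm38.p6). The positions are Six3 chr17:85620584-85620833, plus strand, Slc6a11 chr6:114130991-114131240, plus strand, and Hopx chr5:77095268-77095517, minus strand. Capitals mark E-boxes, the letters CANNTG, which read the same on both strands and were searched because E proteins bind them.
Six3: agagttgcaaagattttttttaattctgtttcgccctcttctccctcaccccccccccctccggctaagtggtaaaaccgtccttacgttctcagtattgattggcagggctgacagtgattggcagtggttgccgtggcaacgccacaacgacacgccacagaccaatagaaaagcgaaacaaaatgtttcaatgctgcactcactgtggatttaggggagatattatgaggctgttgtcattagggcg
Slc6a11: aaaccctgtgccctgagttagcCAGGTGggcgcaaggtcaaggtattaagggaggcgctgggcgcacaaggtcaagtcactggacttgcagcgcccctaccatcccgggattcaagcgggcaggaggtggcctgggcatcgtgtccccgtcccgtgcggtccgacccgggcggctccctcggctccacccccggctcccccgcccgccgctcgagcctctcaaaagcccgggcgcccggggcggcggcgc
Hopx: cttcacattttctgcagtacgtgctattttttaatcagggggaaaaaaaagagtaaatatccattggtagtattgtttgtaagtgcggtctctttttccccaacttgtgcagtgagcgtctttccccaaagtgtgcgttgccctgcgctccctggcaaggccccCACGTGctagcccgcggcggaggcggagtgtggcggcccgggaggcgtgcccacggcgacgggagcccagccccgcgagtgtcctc
This Six3 window held no E-box, and those of Slc6a11 and Hopx held 1 each. Another Hopx window in the table, chr5:77115124-77115373, held 0. Of 32851 mouse promoter windows of this length, 66.2% held at least 1, so a match here is common. A match describes letters and not a bound site.

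Genes of astrocyte differentiation were higher in the members. Of 35 astrocyte genes compared, 20 were higher in Six3 astroglia, all 20 also under the same limits, and 4 were lower (Nfix, Fgfr3, Htra1 and Id3), of which Nfix and Htra1 were also lower under those limits. Both comparison sets carried progenitor transcripts such as Eomes, and the part of such cells in these counts was not tested. Slc6a11, a GABA transporter of astrocytes, stood at 53.05 and 78.1 CPM in the members against 6.02 and 3.88 CPM, higher 8.81-fold (6.78 to 11.5) in WT and 20.1-fold (14.7 to 28.1) in the cKO. Mt3, a brain metallothionein, stood at 2950 and 2185 CPM against 731 and 408 CPM, and Ednrb, an endothelin receptor of glia, at 479 and 491 CPM against 126 and 87.0 CPM. Apoe and Cst3, a lipid carrier and a secreted protease inhibitor, stood at 2143 and 1698 CPM and 3369 and 1947 CPM in the members against 786 and 578 CPM and 1042 and 661 CPM. Radial glia genes went both ways: 14 of 32 were higher (13 under the same limits), among them Fabp7 (8531 and 7210 CPM against 4806 and 3553 CPM), and 4 were lower, Pax6, Hopx, Slc38a1 and Ptn. Hes5, the Notch target that holds progenitors undifferentiated, stood at 969.7 and 942 CPM against 243 and 181 CPM, and with Notch3 and Lfng it made up the 3 of 19 Notch pathway genes that were higher. Olig1 and Olig2, factors of ventral progenitors and the oligodendrocyte lineage, stood at 135.5 and 134 CPM and 100.1 and 111 CPM against 57.55 and 33.5 CPM and 31.4 and 17.0 CPM. At least 2 of the oligodendrocyte progenitor markers Pdgfra, Sox10 and Cspg4 were found together in 1 WT and 0 cKO members. Ependymal markers were higher for 4 of 5 compared (Dynlrb2, Rsph1, Pifo and Fam183b, genes of motile cilia), and the list summed to 174 and 139.6 CPM against 44.0 and 40.9 CPM, under a selection that allowed at most 1 Foxj1 UMI.

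**Figure D2:**
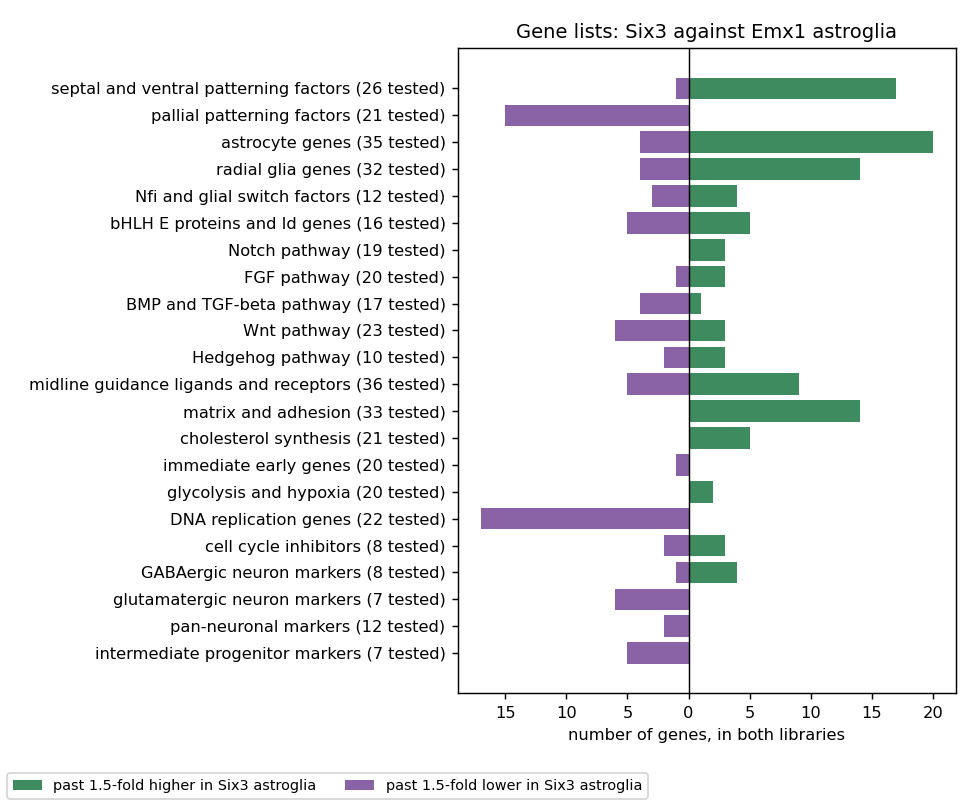
Number of genes in each list that were past 1.5-fold higher (right, green) or lower (left, purple) in Six3 than in Emx1 astroglia of both libraries. Septal and ventral factors extend right with 17 of 26 genes, and pallial factors extend left with 15 of 21.

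Signalling pathways differed in a few genes each. In the Hedgehog pathway, the receptor and target gene Ptch1 stood at 242.5 and 221 CPM in the members against 50.85 and 38.8 CPM, higher 4.77-fold (4.31 to 5.28) in WT and 5.69-fold (5.05 to 6.425) in the cKO. The Hedgehog targets Gli1 (16.7 and 13.0 CPM) and Hhip (20.8 and 15.1 CPM) were low and still above their levels in Emx1 astroglia (2.41 and 1.455 CPM and 1.07 and 0.808 CPM), while the co-receptors Cdon and Gas1 were lower in the members, making 3 higher and 2 lower of 10. Under the same limits Cdon and Gas1 were still called lower, and of the higher genes only Ptch1 was called. In the FGF pathway 3 of 20 were higher, the ligand Fgf15, the FGF carrier Fgfbp3 and the inhibitor Il17rd, and 1, the receptor Fgfr3, was lower. Fgf15 stood at 123 and 112 CPM against 10.8 and 8.08 CPM, higher 11.4-fold (9.435 to 13.7) in WT and 13.9-fold (11.1 to 17.6) in the cKO, but GABAergic neurons had as much (121 and 124 CPM). In the Wnt pathway 6 of 23 were lower, Wnt8b, Sfrp1, Dkk3, Lef1, Rspo2 and Rspo3, and 3 were higher, the receptors Fzd5 and Fzd8 and the effector Tcf7l2, the last at 179 and 168 CPM against 49.0 and 47.7 CPM. In the BMP and TGF-beta pathway 4 of 17 were lower (Bmp7, Id1, Id2 and Id3) and 1, the BMP antagonist Nog, was higher (100.4 and 91.1 CPM against 37.9 and 43.1 CPM). Under the same limits Fgfr3, Sfrp1, Rspo2, Id1 and Id3 were not called lower.

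Guidance and matrix genes that meet growing axons were also part of the contrast. Of 36 midline guidance genes 9 were higher in the members and 5 were lower, or 7 and 4 under the same limits. Ntn1, the secreted axon attractant netrin 1, stood at 86.8 and 92.1 CPM against 10.5 and 7.76 CPM, higher 8.27-fold (6.77 to 10.1) in WT and 11.9-fold (9.37 to 15.2) in the cKO. The other higher genes were the ligands Slit2, Slit3, Ntn4, Sema6a, Sema6d, Efna5 and Efnb3 and the receptor Ephb1, and the lower ones were the netrin receptor Dcc, the repellent Sema3a and the receptors Epha3, Epha5 and Epha7. Of 33 matrix and adhesion genes 14 were higher (13 under the same limits) and 0 lower, at a median log2 ratio of 0.52 in WT and 0.65 in the cKO. Col4a1, a chain of basement membrane collagen, stood at 149.7 and 181 CPM against 20.4 and 22.1 CPM, and Lsamp, a neuronal and glial adhesion protein, at 182 and 170.2 CPM against 29.0 and 22.1 CPM. Sulf1, which trims heparan sulfate, stood at 58.1 and 96.7 CPM against 8.50 and 5.90 CPM. Other leading genes were Dpp6, a potassium channel subunit (52.4 and 70.0 CPM against 7.695 and 8.97 CPM), and the antisense transcript Six3os1 (205 and 208 CPM against 36.3 and 24.7 CPM). Six3os1 (chr17:85600651-85618398, minus strand) overlaps the annotated Six3 gene (chr17:85613608-85629302, plus strand), and whether counting used strand is not given in the sources used here, so the pair cannot be told apart fully.

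Division genes are tied to the selection. Of 22 DNA replication genes, 17 were lower in the members, but 2, Ccne1 and Fen1, were lower under the same limits. Of the 15 genes lower in the members that the naming rule returned, 11 belong to mitosis and histone synthesis (Ube2c, Hist1h1b, Cenpf, Tpx2, Cenpe, Cks2, Cdca3, Ckap2, Cenpa, Ccnb2 and Knstrn). Unlike most of the replication genes, these 11 were past 1.5-fold lower under the same limits as well, since the naming rule asked for that. The cyclins did not follow that division: Ccnd1 stood at 379 and 380.5 CPM in the members against 76.0 and 64.4 CPM, and Ccnd2 at 275 and 305 CPM against 667 and 606 CPM. The Ccnd1 ratio was larger, not smaller, against comparison cells with the same limits, 12.65-fold in WT and 16.75-fold in the cKO. Without the limit on Top2a and Mki67, 22.65% of the cells meeting the other conditions in WT and 25.6% in the cKO had at least 2 of these UMIs. Cholesterol synthesis genes, active in astrocytes, were higher for 5 of 21 (Hmgcs1, Pmvk, Lss, Msmo1 and Nsdhl).

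The members were not uniform among themselves. Nkx2-1 UMIs were present in 63 WT members, 18.6% (14.6 to 23.2), and in 101 cKO members, 32.5% (27.3 to 38.0). Thinned to equal depth the shares were 12.4% and 23.5%, against 1.15% and 1.73% of glutamatergic neurons, which come from the pallium. Before thinning those neurons gave 3.13% and 3.48%. GABAergic neurons gave 12.6% and 18.6% thinned. The split by Nkx2-1 was chosen after values were seen, and a member with no Nkx2-1 UMI may still express the gene. A stricter rule was used here: the lower bound of the ratio's interval at 1.5 or more in both libraries, with no CPM added. The genes that met the minimums of the naming rule were not counted, so no share is given. By this rule and those minimums, 34 genes, Nkx2-1 itself included, were higher in members with Nkx2-1 and 19 in members without it. Those with it had more Sulf1 (12.02-fold in WT, 7.54-fold in the cKO), Sulf2 (7.14 and 4.34), the lysophosphatidic acid receptor gene Lpar1 (7.785 and 5.24), the growth factor binding protein gene Igfbp5 (6.34 and 3.52) and the matrix gene Spon1 (3.85 and 4.36). Sfta3-ps, annotated as a pseudogene and higher 37.4-fold in WT and 20.99-fold in the cKO, came next after Nkx2-1 in this list. Those without it had more Fstl5 (9.16 and 4.15), the glutamate transporter gene Slc1a2 (5.88 and 2.465), the Hedgehog co-receptor gene Gas1 (3.26 and 3.84) and the pallial factor gene Emx2 (2.53 and 2.46). Lhx2 was likewise at 154.5 and 210.2 CPM in WT and cKO members with Nkx2-1 and at 342 and 349 CPM in those without.

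Fgf15 split the members differently. It was present in 39.9% of WT and 42.8% of cKO members, and thinned in 25.15% and 25.4%, against 0.938% and 1.57% of glutamatergic neurons. By the same rule as for Nkx2-1, members without Fgf15 had more of 9 genes in both libraries, again without a share. These included Ecrg4 (5.36-fold in WT, 3.95-fold in the cKO), the proteoglycan gene Bcan (2.69 and 3.62), the matrix gene Tnc (2.65 and 4.20), the neurotrophin receptor gene Ntrk2 (2.35 and 2.56) and Slit2 (1.93 and 2.02). Members with it had more of 5, Fgf15 itself included, among them Col4a1 (1.87 and 2.22). Olig2 was found in 52.1% of WT and 55.0% of cKO members and Gsx2 in 9.17% and 9.97%. At least 2 of the GABAergic markers Gad1, Gad2, Slc32a1, Dlx5 and Dlx6os1 were found in 8.88% of WT and 8.04% of cKO members.

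Tcf4 was the first gene compared between genotypes, because it is the targeted gene. Tcf4 (ENSMUSG00000053477, chr18:69343356-69689079 on mm10, plus strand) gave 2267 and 2074 UMIs in WT and cKO Six3 astroglia, or 716 and 729 CPM. The cKO over WT ratio was 1.02 (0.960 to 1.08). A member held a median of 4 Tcf4 UMIs in either library, and the range from the 10th to the 90th percentile was 1 to 13 UMIs in WT and 1 to 15 in the cKO. In the Emx1 astroglia, the lineage in which Emx1-driven Cre acts, Tcf4 stood at 1887 and 1271 CPM, a ratio of 0.673 (0.660 to 0.687). The 2 ratios differed by 0.60 (0.51 to 0.69) on the log2 scale. The level in cKO Emx1 astroglia was not near 0; the floxed exon is not given in the sources used here, and 3′ end counts can include transcripts that lack it. Free RNA, read from droplets of 10 to 100 UMIs, held Tcf4 at 977 and 711 CPM. Haemoglobin, which glia do not make, bounded the share of free RNA among the members' UMIs at 2.54% in WT and 1.09% in the cKO.

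Six3 astroglia had less Tcf4 than Emx1 astroglia in both libraries, as a description, by 2.64-fold (2.53 to 2.75) in WT and 1.74-fold (1.66 to 1.825) in the cKO. Glutamatergic neurons stood at 2644 and 1761 CPM and GABAergic neurons at 782 and 674 CPM. The ratio in Six3 astroglia was not the same on both sides of the Nkx2-1 split: 1.18 (1.05 to 1.32) with Nkx2-1, from 698 and 823 CPM, and 0.929 (0.862 to 1.00) without it, from 720.3 and 669 CPM. Among members with 2, 3 and at least 4 Six3 UMIs, Tcf4 stood at 659, 719 and 755 CPM in WT and at 802, 642 and 719 CPM in the cKO, with no common order. Cells with no Six3 UMI that met the other conditions stood at 1814 and 1458 CPM, and those with 1 at 766 and 803 CPM. Of 16 bHLH, E protein and Id genes compared between genotypes, 2 were past 1.5-fold higher in the cKO library, Id3 and Neurog2. Over all genes compared the share was 1.66%. Neurog2 gave only 21 WT and 95 cKO UMIs, and 3 cells held 34.2% of the cKO Id3 UMIs. In members without Nkx2-1 the Id3 ratio was 0.703.

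**Figure D3:**
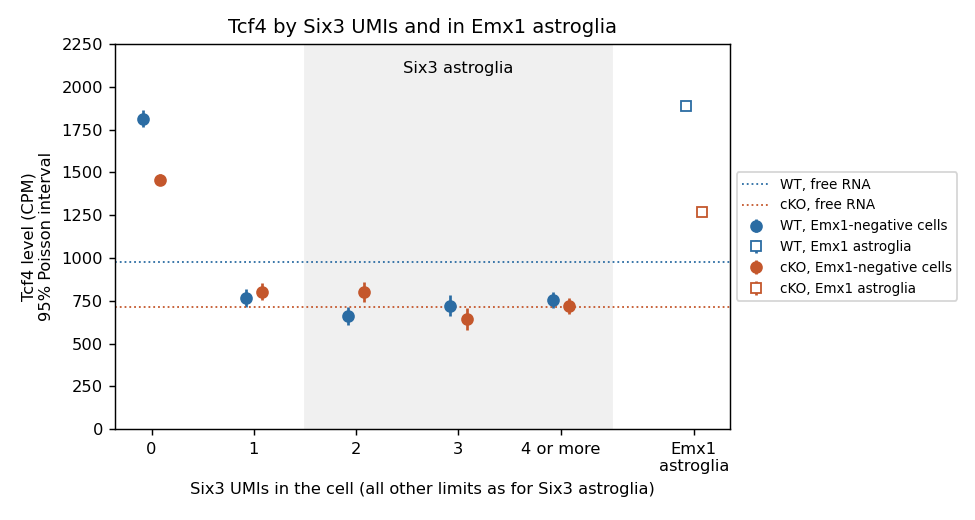
Tcf4 level (CPM, with 95% Poisson intervals) in WT and cKO cells binned by their Six3 UMIs, all other limits as for Six3 astroglia (shaded), and in Emx1 astroglia (open squares); dotted lines give free RNA. Within the shading the levels lie between 642 and 802 CPM in both libraries, and the Emx1 astroglia lie at 1887 CPM in WT and 1271 CPM in the cKO.

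Six3 astroglia made up 12.66% (11.42 to 13.99) of Slc1a3-positive cells in WT and 12.19% (10.94 to 13.52) in the cKO, and 3.77% (3.39 to 4.19) and 2.92% (2.605 to 3.25) of all cells. With the conditions read on thinned cells the shares of Slc1a3-positive cells were 12.34% (10.51 to 14.36) and 12.94% (10.8 to 15.32). A difference in dissection cannot be told apart from one of genotype in these shares. Within the Six3 astroglia, 9458 genes with at least 50 UMIs were compared between libraries. Of these 157 (1.66%) were past 1.5-fold higher in the cKO library and 88 (0.93%) lower, and the median log2 ratio over all of them was 0.00, with an interquartile range of -0.13 to 0.14. In Emx1 astroglia 107 of 12219 genes (0.876%) were higher and 73 (0.597%) lower. Among genes compared in both sets, 41 were higher in the cKO library in both, out of 153 in Six3 and 76 in Emx1 astroglia, and 6 were lower in both, out of 83 and 61. The conditions were also read on thinned cells, with levels summed from full counts. This drew 145 WT and 115 cKO cells, of which 96 and 89 were members on full counts. In the cells so drawn 108 genes were higher, of which 19 were among the 157, and 216 were lower, of which 26 were among the 88. The part of the changed set of cells in these counts was not tested. Under the naming rule, which asks for 50 CPM, 12 genes were named as higher and 10 as lower.

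**Figure D4:**
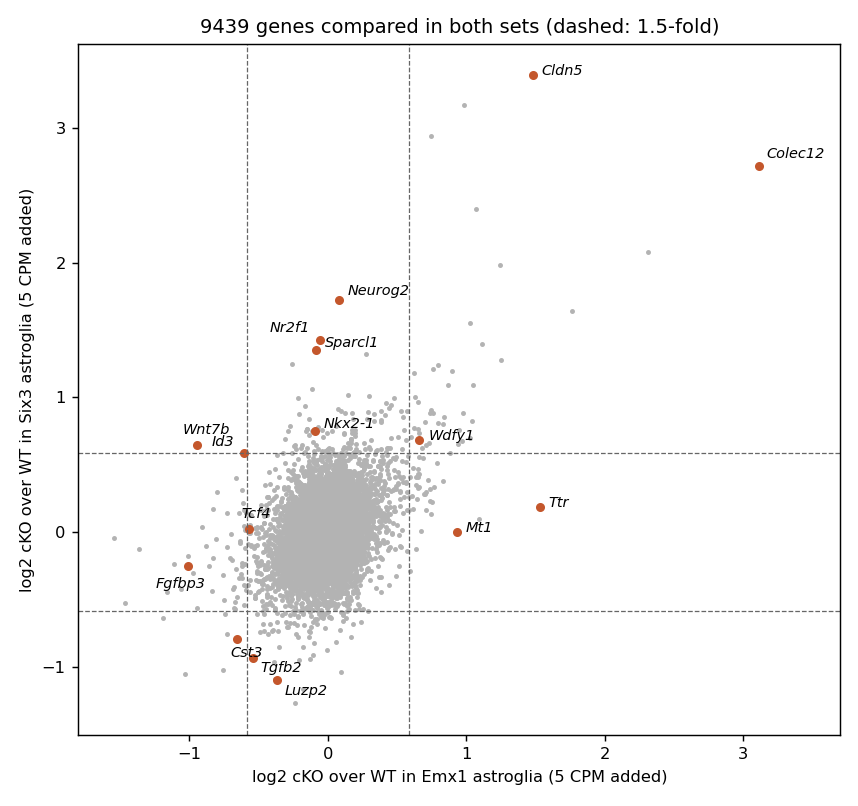
Log2 ratio of cKO to WT level in Six3 astroglia (vertical axis) against that in Emx1 astroglia (horizontal axis), with 5 CPM added to each level; each point is 1 of 9439 genes, and dashed lines mark 1.5-fold. Colec12 lies far above 0 on both axes, Tcf4 near 0 on the vertical axis and below 0 on the horizontal one, and Cst3 below 0 on both.

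Colec12, which encodes a scavenger receptor with a collagen stalk, differed between the libraries in many of the members. It stood at 12.95 and 113 CPM in WT and cKO members, 8.72-fold (6.29 to 12.4) higher in the cKO library. Its UMIs were spread over many members, 10.4% of them in WT and 60.1% in the cKO, or 4.14% and 30.2% thinned. It was not particular to these cells: Emx1 astroglia stood at 3.48 and 68.05 CPM, glutamatergic neurons at 0.899 and 102 CPM and GABAergic neurons at 3.13 and 106 CPM. Colec12 lies on chromosome 18, at 9707595 to 9882644 on mm10, the chromosome that also carries Tcf4. Wdfy1, which encodes an endosomal adaptor protein, stood at 51.8 and 86.5 CPM, 1.67-fold (1.37 to 2.05) higher, and its ratio in Emx1 astroglia was 1.67 (1.48 to 1.88). These 2 genes were higher by similar ratios with and without Nkx2-1: Colec12 by 7.51 and 8.69, Wdfy1 by 1.47 and 1.73.

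Several other higher genes had their UMIs in few cells. Cldn5, the tight junction gene of brain endothelium, gave 1 UMI in WT and 144 in the cKO, and all 144 lay in 3 cKO members, 1 of them called a doublet. The same 3 cells held 56 of the 621 Sparcl1 UMIs and 69 of the 200 Itm2a UMIs of the cKO members. Selenom stood at 107 and 167 CPM, with 90 of its 475 cKO UMIs in 1 cell. Sparcl1, a secreted matrix protein of astrocytes and vessels, stood at 82.7 and 218 CPM, 2.64-fold (2.28 to 3.06) higher. With the members that carried vascular transcripts removed, it stood at 82.7 and 207.8 CPM. Sulf1 stood at 58.1 and 96.7 CPM, 1.665-fold (1.38 to 2.02) higher, and Nkx2-1 at 73.9 and 128 CPM, 1.73-fold (1.46 to 2.045) higher. With the conditions read on thinned cells, Nkx2-1 stood at 189 and 211 CPM, a ratio of 1.12. Id3, an inhibitor of E proteins, stood at 85.25 and 130.5 CPM, 1.53-fold (1.305 to 1.80) higher, but the share of members with an Id3 UMI was 30.2% in WT and 26.7% in the cKO, and 3 cells held 34.2% of its cKO UMIs. The Mediator subunit gene Med13l (46.7 and 74.6 CPM), the DNA ligase gene Lig1 (36 and 59.1 CPM) and C530008M17Rik (57.15 and 93.2 CPM) completed the higher genes.

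No gene named as lower had over 16.9% of its UMIs in 3 cells of either library. Cst3, cystatin C, stood at 3369 and 1947 CPM, 1.73-fold (1.675 to 1.79) lower in the cKO library, and the median member held 23 UMIs in WT and 13 in the cKO. In Emx1 astroglia Cst3 was lower too, by 1.58-fold (1.53 to 1.62). Tgfb2, a TGF-beta ligand, stood at 221 and 113 CPM, 1.95-fold (1.71 to 2.23) lower, with UMIs in 63.3% of WT and 45.98% of cKO members. Luzp2, a leucine zipper gene, stood at 126 and 56.3 CPM, 2.245-fold (1.86 to 2.71) lower. The sodium pump beta subunit gene Atp1b1 stood at 136 and 84.4 CPM, 1.61-fold (1.37 to 1.89) lower, whereas its ratio in Emx1 astroglia was 1.09 (0.968 to 1.23). Other lower genes were Lamtor3, a scaffold of the lysosome (94.4 and 54.5 CPM), Entpd2, an ectonucleotidase of astroglia (61.6 and 36.6 CPM), the sulfotransferase gene Chst2 (82.1 and 52.4 CPM), the chloride channel gene Ano1 (73.3 and 46.4 CPM) and the acylphosphatase gene Acyp2 (53.4 and 33.4 CPM). Mt3 stood at 2950 and 2185 CPM, 1.35-fold (1.31 to 1.395) lower, a difference under the 1.5-fold size.

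Sox9 and the Zic genes named here differed by less than 1.5-fold between the libraries. The cKO over WT ratio was 0.902 (0.847 to 0.961) for Sox9, 0.937 (0.871 to 1.01) for Zic1, 0.882 (0.812 to 0.958) for Zic4 and 0.954 (0.8295 to 1.10) for Zic5. It was 0.741 (0.649 to 0.844) for Aldh1l1, 0.7925 (0.764 to 0.822) for Apoe and 0.724 (0.663 to 0.791) for the glycolytic enzyme gene Aldoc, all lower in the cKO library by less than 1.5-fold. With the conditions read on thinned cells and levels summed from full counts, the log2 ratios of Sox9 and Aldh1l1 were 0.027 and 0.027. In Emx1 astroglia the Aldh1l1 ratio was 0.420 (0.360 to 0.489). Of 30 astrocyte genes, 2 were higher (Sparcl1 and Id3) and 1 lower (Cst3), at a median log2 ratio of -0.15. None of 32 radial glia genes passed 1.5-fold, and 23 of them lay below 0 (median -0.07). None of 20 cholesterol synthesis genes passed it either, and 17 lay below 0 (median -0.12). Of 26 septal and ventral factors, 2 were higher, Nkx2-1 and Nr2f1, and 1 was lower, Nkx6-2, at a median of 0.00. The last 2 rested on few UMIs: Nr2f1 gave 14 and 58 UMIs and Nkx6-2 84 and 14 UMIs. Of 11 Hedgehog pathway genes, 1 was lower, the ligand Shh, with 73 and 26 UMIs in 2.07% of WT and 2.57% of cKO members. None of 17 FGF pathway genes passed, with a median of -0.13. Of 18 Wnt pathway genes, 2 were higher (Wnt7b and Rspo3) and 1 lower (Fzd5, 29.7 and 16.53 CPM), and of 33 guidance genes 2 were higher (Plxna4 and Epha3) and 1 lower (Epha5).

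Markers of other cell types differed between the libraries and stand beside these results. Of 5 glutamatergic neuron markers, 4 were higher in cKO members, Neurod1, Neurod2, Neurod6 and Bcl11b, and the list's summed level was 168.6 CPM in WT and 338 CPM in the cKO. The same list stood at 328.7 and 643 CPM in Emx1 astroglia and at 974 and 933 CPM in free RNA. All 12 pan-neuronal markers had log2 ratios above 0, with Tubb3 past 1.5-fold and a summed level of 1298 and 1694 CPM. Neurog2, a proneural factor of the pallium, gave 21 and 95 UMIs, and 3 cells held 66.7% of them in WT and 49.5% in the cKO. Endothelial and pericyte markers summed to 52.1 and 179 CPM. Microglia markers summed to 8.21 and 0.703 CPM, and 7 of 8 were at 0 in the cKO members. Ependymal markers summed to 174 and 139.6 CPM, 4 of 10 being at 0 in either library. Of 18 DNA replication genes, 15 had log2 ratios above 0 (median 0.25) and 1, Mcm5, was past 1.5-fold higher. With cells carrying neuron transcripts removed, 234 WT and 196 cKO members were left. Of the 157 higher genes 39 were then called again, and of the 88 lower genes 33. That removal also left fewer cells, and the part of the neuronal transcripts alone was not tested.

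**Figure D5:**
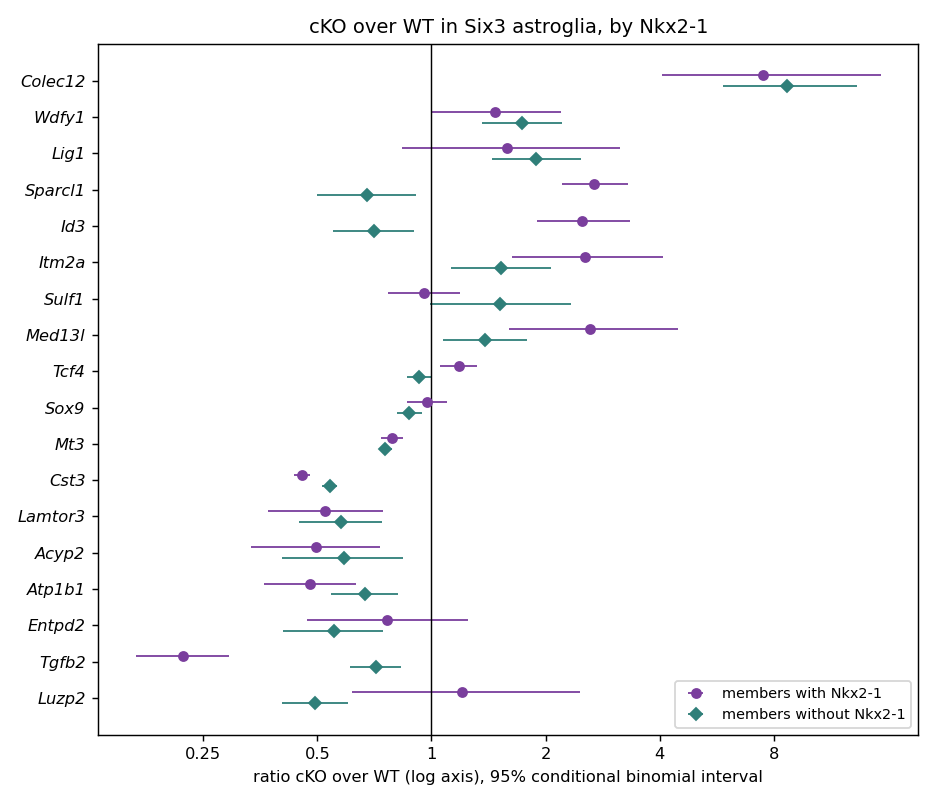
Ratio of cKO to WT level (log axis) of named genes in members with an Nkx2-1 UMI and in members without one, with 95% counting intervals. Sparcl1 and Id3 lie above 1 with Nkx2-1 and below 1 without it; Cst3 lies below 1 on both sides.

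Because the cKO library held the larger share of Nkx2-1 members, the genotype comparison was read on each side of that split. Cst3 was lower on both: 5914 and 2698 CPM with Nkx2-1 and 2716 and 1464 CPM without it. Lamtor3 (ratios 0.525 and 0.577), Acyp2 (0.494 and 0.588) and Mt3 (0.787 and 0.756) were lower on both sides too. Tgfb2 had the smaller ratio with Nkx2-1, 0.221 (0.166 to 0.292), from 289 and 63.8 CPM, against 0.714 (0.611 to 0.832) without it. Sparcl1 stood at 185 and 499 CPM with Nkx2-1 and at 56.4 and 38.1 CPM without it, so its ratio was 2.69 (2.205 to 3.305) on the first side and 0.677 (0.4975 to 0.912) on the second. Id3 behaved alike, with ratios of 2.50 (1.90 to 3.35) and 0.703 (0.548 to 0.897). Sulf1, which was higher in Nkx2-1 cells, had ratios of 0.954 (0.769 to 1.19) and 1.52 (0.989 to 2.34), against 1.665 over all members. Luzp2, higher in cells without Nkx2-1, had a ratio of 0.494 (0.402 to 0.604) there, and of 1.205 (0.6165 to 2.47) in cells with Nkx2-1, from 14 and 29 UMIs. The Zic genes differed by side: Zic4 had ratios of 0.649 (0.5435 to 0.776) and 1.045 (0.951 to 1.15), and Zic1 of 0.710 (0.619 to 0.815) and 1.05 (0.9585 to 1.14).

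The genotype ratio of Six3 astroglia was then set against that of Emx1 astroglia gene by gene. Of 9439 genes, the difference was past 1.5-fold above 0 for 171 (1.81%) and below 0 for 89 (0.943%). Among genes above 0, Fgfbp3, which releases FGF from the matrix, stood at 864 and 725 CPM in the members and at 378 and 185 CPM in Emx1 astroglia, a log2 difference of 0.78 (0.67 to 0.88). Tnc, tenascin C, stood at 71.05 and 80.5 CPM against 156 and 85.75 CPM, a difference of 1.04 (0.76 to 1.33), and Olig2 at 100.1 and 111 CPM against 31.4 and 17.0 CPM, a difference of 1.03 (0.71 to 1.36). Lxn, latexin, stood at 149.7 and 185 CPM against 29.8 and 15.0 CPM. In these genes the cKO level was the lower one in the Emx1 astroglia. The members showed less of that difference for Fgfbp3, while Tnc, Olig2 and Lxn were higher in their cKO library by less than 1.5-fold. The largest difference above 0 by the rule was that of Neurog2, 2.23 (1.55 to 2.90), which rests on 21 and 95 UMIs in the members. Sparcl1, Id3, Sulf1 and the calcium-binding protein gene Tesc (28 and 52 UMIs) were the others. Below 0 were the metallothionein genes Mt1 (142 and 142 CPM against 164.5 and 318 CPM) and Mt2 (155 and 126 CPM against 135 and 206 CPM), with differences of -0.95 (-1.16 to -0.74) and -0.91 (-1.12 to -0.70). Ttr, the thyroid hormone carrier made by choroid plexus, stood at 60.6 and 69.6 CPM against 252 and 736 CPM, and free RNA held it at 977 and 1839 CPM. The Emx1 side of Ttr turned with the cells chosen: its log2 ratio was 1.53, but -2.93 with at least 6 Slc1a3 UMIs and -2.88 without cells carrying neuron transcripts. Alcam, an adhesion protein of axons, stood at 119 and 93.9 CPM against 99.4 and 129.8 CPM, a difference of -0.73 (-0.98 to -0.48). Atp1b1, Colec12, Cenpa and Nrg1 were the other genes below 0.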

How the data were processed

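The corticoseptal boundary libraries were read as deposited count matrices: UMI counts per gene and barcode, unfiltered, for 32285 genes. Per the file headers the authors' counts came from Cell Ranger 7.1.0. An older release, 2.1.1, and the build mm10 stand in the notes on processing that the submitters gave, and the labels name version 1 of the 3′ chemistry. The annotation release, intron setting and strand setting are not given in the sources used here.

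Groups came from the genotype label. Cells, Six3 astroglia and Emx1 astroglia were taken by the limits given in the text, on raw UMI counts. These members and the 28 gene lists (474 of 475 listed genes were in the files) were chosen with earlier results of these data known. UMIs were summed over the cells of a set. Ratios were called past 1.5-fold after 5 CPM was added, for genes with at least 50 UMIs. Level intervals are exact Poisson, ratio intervals exact conditional binomial and shares Clopper-Pearson, at 95%. Differences of log2 ratios used 0.5 added UMIs and a Wald interval. With 1 library per genotype no test was made. The functions were tested on simulated data.

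Genes named between sets or genotypes had at least 50 CPM in the higher set, at least 50 UMIs and a ratio past 1.5-fold. Their level there was not below that of free RNA (droplets of 10 to 100 UMIs). Between sets, the ratio also had to pass 1.5-fold against comparison cells with the same limits. Genes named for differences of ratios needed 50 CPM in at least 1 level and 50 UMIs in each set. No free RNA or 1.5-fold condition was set for them. Genes were ranked by the interval bound nearest to no difference. Up to 15 were named in each direction between sets, 12 between genotypes and 8 for differences. Mitochondrial, ribosomal, haemoglobin, sex-linked and selection genes were left out of the naming, and listed genes were also named. Some genes that the rule returned are not reported here. For shares, each cell was thinned to 3350 UMIs. Glutamatergic and GABAergic neurons served as reference types. Doublets were marked per library with the Scrublet caller in scanpy 1.11.5 at an expected 6%, kept, and removed as an alternative. Positions come from GENCODE on mm10 and promoter sequences from RefSeq on GRCm38.p6. Other tools were Python 3.11.15, numpy 2.4.6, scipy 1.17.1, pandas 2.3.3 and matplotlib 3.10.9. The closing section gives the alternatives.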

Additional observations from a re-analysis of the deposited data

Results flagged for a closer look

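Id3, an Id protein gene, was past 1.5-fold in opposite directions in the 2 sets. In Six3 astroglia it gave 270 UMIs in WT and 371 in the cKO, 85.25 and 130.5 CPM, a ratio of 1.53 (1.305 to 1.80). In Emx1 astroglia it gave 5101 and 2762 UMIs, 341 and 223 CPM, a ratio of 0.654 (0.624 to 0.685). The log2 ratios were 1.19 apart, and this difference was not tested, since each side is 1 library against 1. In members with no Nkx2-1 UMI the Id3 ratio was 0.703. Over all members it was 1.12 with at least 3 Six3 UMIs, 1.14 without cells carrying neuron transcripts and 2.31 with at least 6 Slc1a3 UMIs. Id3 UMIs were found in 30.2% of WT and 26.7% of cKO members, and 3 cells held 34.2% of the cKO UMIs.

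Wnt7b, a Wnt ligand gene, was the other gene past 1.5-fold in opposite directions. It gave 42 and 67 UMIs in Six3 astroglia, 13.3 and 23.6 CPM, a ratio of 1.78 (1.19 to 2.68), and 236 and 72 UMIs in Emx1 astroglia, 15.8 and 5.82 CPM, a ratio of 0.3685 (0.279 to 0.482). The log2 ratios were 1.59 apart, and this difference was not tested either. In members with no Nkx2-1 UMI the Wnt7b ratio was 1.01 (0.521 to 1.91), and in those with one it was 1.78 (0.996 to 3.355).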

How the results depend on the processing

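Settings were altered 1 at a time. Below, a value on thinned cells is one with the conditions read on thinned counts and levels summed from full counts. The cells so chosen were partly others than the members. Over the results that answer a comparison, 76 of the recomputed values lay within the counting interval of the reported value, or within 1.5 times the reported count, and 25 did not. The share of Slc1a3-positive cells that were Six3 astroglia differed between the libraries by -0.48 percentage points (cKO minus WT) and by 3.17 points with at least 6 Slc1a3 UMIs. The Tcf4 ratio in Six3 astroglia, 1.02, was 0.935 with at least 3 Six3 UMIs, 1.13 with the conditions read on thinned cells and 0.929 without Nkx2-1 members. The Tcf4 ratio in Emx1 astroglia, 0.673, was 0.654 with at least 6 Slc1a3 UMIs, 0.750 on thinned cells, 0.605 without cells carrying neuron transcripts and 0.637 with at least 2 Emx1 UMIs.

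The 157 higher genes became 103 without cells carrying neuron transcripts, 275 with 1 CPM added, 264 with genes of at least 20 UMIs and 329 with no minimum. The 88 lower genes became 216 on thinned cells, 210 with 1 CPM added, 140 with at least 20 UMIs, 159 with no minimum and 148 without Nkx2-1 members. Between Six3 and Emx1 astroglia, conditions read on thinned cells gave 463 higher and 362 lower genes and equal limits 405 lower. The 260 genes whose genotype ratio differed became 631 on thinned cells, 585 with equal limits, 558 with 1 CPM added, 457 with at least 20 UMIs and 562 with no minimum. With doublet calls removed, 77 of the 157 and 58 of the 88 were called again. Without vascular transcripts the numbers were 110 and 80, and without neuron transcripts 39 and 33. The cause of these shifts was not tested.

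Of the reported genes past 1.5-fold, the log2 cKO over WT ratio turned direction for Cldn5 (-0.19), Itm2a (-0.34), Sulf1 (-0.041), Lig1 (-0.79) and Tesc (-0.50) on thinned cells, for Cenpa (0.12) with at least 6 Slc1a3 UMIs, and for Neurod1 without neuron transcripts (-0.11). Without Nkx2-1 members it turned for Neurod1 (-0.63), Sparcl1 (-0.51) and Id3 (-0.47). Reported genes under 1.5-fold turned too. On thinned cells these were Aldh1l1 (0.027), Sox9 (0.027), Nrg1 (0.019) and Ttr (-0.43). With at least 3 Six3 UMIs they were Tnc (-0.17), Mt1 (-0.20) and Tcf4 (-0.097). Without neuron transcripts they were Tnc, Ttr, Mt1, Tcf4 and Zic1, and with the mean over cells Mt1. Without Nkx2-1 members they were Lxn (-0.20), Olig2 (-0.046), Tnc, Mt1, Tcf4, Zic1 and Zic4. Colec12 and Cst3 kept their direction under each alternative that redrew the members or the scaling, with ratios of 5.15 to 9.515 and 0.539 to 0.611. Of the recomputed gene ratios, 411 lay within the counting interval, 83 outside it, and 10 of genes past 1.5-fold turned direction. The Nkx2-1 ratio was 1.12 on thinned cells, 1.47 with at least 3 Six3 UMIs and 1.77 with at least 6 Slc1a3 UMIs. Id3 gave 1.12 with at least 3 Six3 UMIs, 2.31 with at least 6 Slc1a3 UMIs and 1.14 without neuron transcripts. Chst2 gave 0.382 on thinned cells and 0.877 without neuron transcripts, and Ano1 0.917 on thinned cells. Removing members with vascular transcripts and removing Nkx2-1 members were chosen after seeing the data. Scaling by the median of gene ratios gave the same calls. No paired analysis was possible because each genotype has 1 library. A gene under 50 UMIs over the sets compared was not counted, and genes near that number have wide intervals.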
